A study of Homo sapiens with 18 samples.

Results

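The genes of the cytosolic ribosomal proteins were taken as the protein-coding autosomal genes named RPL or RPS with a number and an optional A, together with RPLP0, RPLP1, RPLP2 and RPSA. This gave 73 genes of the 60656 gene rows in the count table, 30 for proteins of the small ribosomal subunit and 43 for proteins of the large subunit. The members were chosen by name, with earlier results of these data known. They lie on 20 chromosomes, with 12 of them on chromosome 19, and a further 3 genes with matching names on the X chromosome (RPL10, RPL36A and RPL39) were left out. Messenger RNA was counted from its 3′ ends (Lexogen QuantSeq kit) in CAMA-1 and ZR-75-1, which are both established lines of oestrogen receptor-positive breast cancer and wild-type per the labels. Cells of each line received abemaciclib or palbociclib, both inhibitors of the cyclin-dependent kinases CDK4 and CDK6, at 500 nM for 5 days, and control cells received the same volume of DMSO. Each of the 6 groups had 3 libraries, which the study describes as independent biological replicates. The comparisons ask how the share and the levels of the ribosomal protein mRNAs differed between drug and control, between the drugs and between the lines.

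Ribosomal proteins assemble with the ribosomal RNAs into the small subunit, which reads the mRNA, and the large subunit, which joins the amino acids and passes the nascent chain through its exit tunnel. Growing cells devote much of their mRNA to these proteins, and the subunits are normally made in equal amounts. Most ribosomal protein mRNAs begin with a C followed by an unbroken run of pyrimidines, the terminal oligopyrimidine (TOP) motif, through which the kinase mTOR and the RNA-binding protein LARP1 control their translation and stability.

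The starts of the members were read from RefSeq promoter entries on GRCh38.p14, and 58 of the 73 genes had at least 1 entry, 71 entries in all. A C at the annotated first base, followed by at least 4 bases that are each C or T on the coding strand, was found in 43 member entries (60.6%), against 4.07% of all 35116 entries of the same length. These 43 entries belonged to 43 members. The windows below hold the 10 bases before and the 20 bases from the annotated start of the members whose values the results turn on, read 5′ to 3′ on the coding strand. Capitals mark the unbroken run of C and T that begins at the annotated first base.
RPSA: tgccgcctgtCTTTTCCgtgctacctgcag (chr3:39406710-39406739, plus strand).
RPS27: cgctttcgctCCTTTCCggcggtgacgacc (chr1:153990752-153990781, plus strand).
RPS21: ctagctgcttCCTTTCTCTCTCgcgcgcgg (chr20:62387093-62387122, plus strand).
RPS29: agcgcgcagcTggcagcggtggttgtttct (chr14:49598691-49598720, minus strand).
RPLP0: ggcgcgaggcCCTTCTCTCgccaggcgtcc (chr12:120201092-120201121, minus strand).
RPLP1: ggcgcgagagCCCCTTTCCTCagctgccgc (chr15:69452808-69452837, plus strand).
RPLP2: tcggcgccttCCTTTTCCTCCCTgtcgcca (chr11:809957-809986, plus strand).
RPL12: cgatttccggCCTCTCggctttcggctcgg (chr9:127451387-127451416, minus strand).
RPL22: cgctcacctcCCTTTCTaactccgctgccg (chr1:6199576-6199605, minus strand).
RPS28: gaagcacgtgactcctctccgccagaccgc (chr19:8321486-8321515, plus strand).
Of the windows shown, those of RPS29, which was among the members with the largest falls, and RPS28 did not carry the run at the annotated first base, and the others did. In the RPS28 window a run of C and T begins at the base after the annotated first base. Whether the annotated starts are those used in these cells was not tested. RPL15 and RPL10A, which were called higher in some comparisons below, have entries without the run.

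Counts of the members were high in nearly all cases. Of the 73 genes, 70 had a mean of at least 500 counts per library, from 567 for RPS26 to 12494 for RPS24, and the next highest were RPS6 (9446) and RPS27A (8839). Library totals ran from 2308442 to 4146549 counts. The remaining 3 members were close to unmeasured, among them RPS10 with a mean of 12.3 counts and RPL17 with 1.11. On their own strand RPS10 and RPL17 are overlapped by the readthrough genes RPS10-NUDT3 and RPL17-C18orf32. RPS10 had 20, 26 and 28 counts in the CAMA-1 controls, against 6, 6 and 7 for ZR-75-1, and passed the filter on low counts in CAMA-1 but not in ZR-75-1. The filter thus left 71 members in CAMA-1, 70 in ZR-75-1 and 71 in the fit of both lines. Every member has at least 1 pseudogene row by name, and the counts of these rows came to 12.6% to 16.1% of the member counts in a library. The libraries expressed the luminal epithelial markers, all 8 of which had over 3 counts in every library. Of 10 markers of stromal, blood, endothelial and basal cells, 6 never exceeded 3 counts (COL1A2, CD3E and KRT5 were at 0). The others were COL1A1 with 26 to 108 counts, ACTA2 with 2 to 34, COL3A1 with up to 24 and CD14 with up to 10.

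The members took a smaller share of the CAMA-1 transcriptome with either drug. They held 9.81%, 9.65% and 9.57% of all counts in the 3 DMSO libraries. With abemaciclib they held 6.64%, 6.75% and 6.35%, and with palbociclib 6.98%, 6.72% and 7.06%. No drug library reached the lowest control, and the mean fell from 9.68% ± 0.12 (SD, n = 3) to 6.58% ± 0.20 and 6.92% ± 0.18. In ZR-75-1 the control libraries had 11.2%, 10.8% and 10.6%, those given abemaciclib 9.90%, 10.6% and 9.97% and those given palbociclib 10.6%, 10.7% and 10.7%, so that the groups overlapped. Mitochondrially encoded genes moved with the CAMA-1 result, since they rose from 15.7% ± 0.87 of the counts in the controls to 24.8% ± 1.37 under abemaciclib and 23.6% ± 1.15 under palbociclib. Over the counts outside these genes the member share in CAMA-1 was 11.5% ± 0.26 in the controls, 8.75% ± 0.13 under abemaciclib and 9.06% ± 0.10 under palbociclib, again without overlap with the controls. In ZR-75-1 the same share was 13.6% ± 0.49, 12.6% ± 0.35 and 13.2% ± 0.02. There the highest abemaciclib library (13.0%) lay just below the lowest control (13.1%), and the palbociclib libraries lay within the range of the controls.

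**Figure D1:**
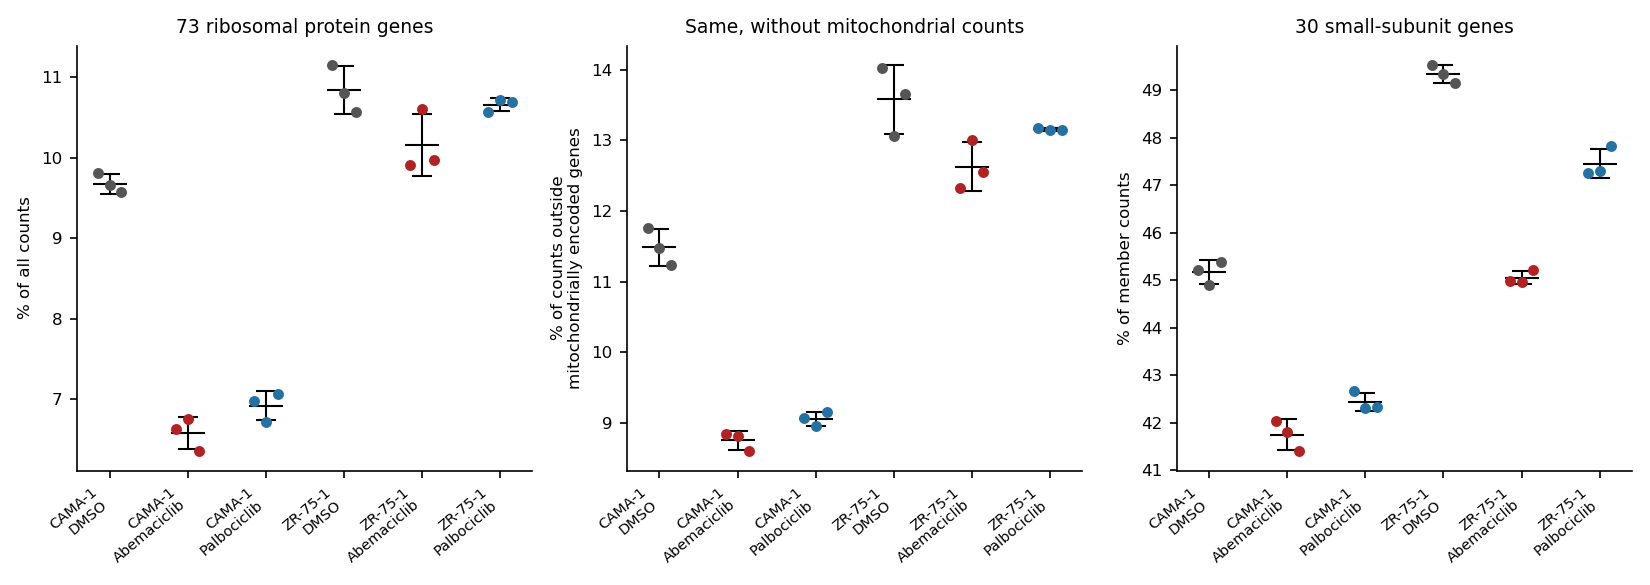
Share of counts by library in the 6 groups, with the mean and SD as bars (n = 3). Left, the 73 members as % of all counts; middle, as % of counts outside mitochondrially encoded genes; right, the 30 small-subunit members as % of member counts. The vertical axes do not start at 0. The CAMA-1 drug libraries lie between 6.35% and 7.06% of all counts, below every control, and the small-subunit share is lower with both drugs in both lines.

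The subunits did not contribute equally to these shares. Small-subunit members made up 44.9% to 45.4% of the member counts in the CAMA-1 controls, 41.4% to 42.0% with abemaciclib and 42.3% to 42.7% with palbociclib. In ZR-75-1 they made up 49.1% to 49.5%, 45.0% to 45.2% and 47.3% to 47.8%. In each line the 3 groups were fully separated, with abemaciclib lowest, and the small-subunit share of all counts was below the controls with both drugs in both lines (in ZR-75-1 5.35% ± 0.17 in controls, 4.58% ± 0.17 under abemaciclib and 5.06% ± 0.06 under palbociclib). The large-subunit share of all counts in ZR-75-1 was 5.49% ± 0.13, 5.58% ± 0.22 and 5.60% ± 0.04 in the same order, with overlapping libraries.

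In CAMA-1, single members were tested with edgeR's quasi-likelihood F test over all genes and called at a Benjamini-Hochberg adjusted p under 0.05. With abemaciclib 57 of the 71 members tested were called lower and 2 higher, and over all genes tested 20.1% were called lower and 20.3% higher. With palbociclib 57 were again called lower and 2 higher, against 18.7% and 18.4% of all genes. The 57 that fell were the same genes with both drugs, which were compared with the same DMSO libraries. The median log2 fold change of the members was -0.47 with abemaciclib and -0.39 with palbociclib, and that of all genes was 0.01 and 0.00. SEs of the members ran from 0.05 to 0.09, apart from the sparse RPS10. In a bulk sample fewer cells of a type and less RNA per cell cannot be told apart, and the part of the mitochondrial share in these changes was not tested. A refit without the mitochondrially encoded genes used the same TMM scaling and so cannot test that part. Its member medians were -0.46 and -0.39, and all 57 members were again called lower with both drugs.

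Among the small-subunit proteins none was called higher in CAMA-1, and 25 of 29 fell with each drug. The list of proteins along the mRNA channel (among them RPS2, RPS3 and RPS9 at the entry and RPS26, RPS28 and RPSA on the exit side) fell at 6 of 8 members with either drug, and RPS9 and RPS14 were not called. RPSA, also known as the laminin receptor gene and located at the mRNA exit, had 315, 298 and 292 CPM (counts divided by the TMM-scaled library size, per megacount) in the controls, 151, 150 and 139 with abemaciclib and 162, 162 and 169 with palbociclib. Every drug library lay far below every control, and RPSA showed the largest fall of any member (log2 fold change -1.04 ± 0.08 SE, adjusted p = 7.3e-15, with abemaciclib and -0.88 ± 0.08, adjusted p = 7.5e-13, with palbociclib). RPS29, a small zinc-binding protein of the subunit's head, had 2310, 2212 and 2320 CPM in the controls, 1148, 1161 and 1105 with abemaciclib and 1284, 1323 and 1285 with palbociclib. The fitted level with abemaciclib was 0.499 of that with DMSO (adjusted p = 6.8e-19), and with palbociclib the log2 fold change was -0.81 ± 0.06. The 3 groups of RPS29 did not overlap.

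Other small-subunit members fell less. RPS3, the member with the most counts in CAMA-1, went from 5135, 5319 and 4809 CPM to 3209, 3311 and 3299 with abemaciclib and 3537, 3599 and 3319 with palbociclib (log2 fold changes -0.64 ± 0.05 and -0.55 ± 0.05). RPS6, the substrate of the S6 kinases downstream of mTOR, went from 3348, 3182 and 3320 CPM to 2458, 2359 and 2299 and to 2421, 2357 and 2500 (-0.47 ± 0.05 and -0.44 ± 0.05). RPS27A, which is made as a fusion with ubiquitin, changed by -0.66 ± 0.07 and -0.62 ± 0.07. RPS9 stood at 206, 200 and 188 CPM with DMSO, 203, 183 and 200 with abemaciclib and 185, 195 and 178 with palbociclib, so that its groups overlapped (-0.01 ± 0.08 and -0.09 ± 0.08, adjusted p = 0.90 and 0.40). RPS14 and RPS25 were likewise not called, at -0.14 ± 0.06 and -0.08 ± 0.09 with abemaciclib.

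Of the 42 large-subunit members tested in CAMA-1, 32 fell and 2 rose with each drug. The P stalk proteins, which recruit the GTPases of translation, all fell with both drugs. RPLP2 fell most of them, from 1102, 1082 and 944 CPM to 667, 645 and 627 with abemaciclib and 669, 703 and 678 with palbociclib (-0.69 ± 0.06 and -0.61 ± 0.06). RPLP0 went from 1448, 1401 and 1370 CPM to 987, 1040 and 988 and to 960, 1004 and 1023 (-0.48 ± 0.06 and -0.50 ± 0.06), and RPLP1 changed by -0.36 ± 0.06 and -0.23 ± 0.06. RPL5 and RPL11, which bind the 5S ribosomal RNA and, when free, the p53 regulator MDM2, fell by 0.21 and 0.35 on the log2 scale with abemaciclib and by 0.17 and 0.33 with palbociclib.

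Around the exit tunnel the changes were mixed. RPL19, RPL23A, RPL26, RPL31 and RPL35 fell with both drugs, from -0.15 for RPL31 to -0.64 for RPL35 with abemaciclib. RPL24, a large-subunit member away from the tunnel, also fell with both drugs. The RPL31 calls were lost in 7 of 13 alternative fits with each drug, whichever of 5 libraries was left out with abemaciclib. RPL22 rose with abemaciclib, from 169, 163 and 184 CPM to 231, 225 and 199 (0.34 ± 0.08, adjusted p = 6.8e-04), and stood at 190, 193 and 180 with palbociclib (0.12 ± 0.08, adjusted p = 0.26), where the groups overlapped. The remaining exit tunnel member, RPL17, was too sparse to test. Of the proteins that reach toward the peptidyl transferase centre, RPL8 fell (-0.64 ± 0.05 and -0.59 ± 0.05), whereas RPL3 stood at 0.04 ± 0.07 and 0.12 ± 0.07 and RPL4 at -0.06 ± 0.06 and -0.08 ± 0.06, neither called. RPL12, which sits at the base of the P stalk, was higher in all 6 drug libraries than in every control, with 453, 465 and 472 CPM with DMSO, 610, 595 and 565 with abemaciclib and 534, 579 and 553 with palbociclib (0.35 ± 0.06, adjusted p = 2.0e-05, and 0.26 ± 0.06, adjusted p = 1.0e-03). RPL10A, the protein of the L1 stalk, was called higher with palbociclib (0.15 ± 0.06, adjusted p = 0.044) and was at 0.09 ± 0.06 with abemaciclib. The palbociclib call of RPL10A was lost in 7 of 13 alternative fits, among them DESeq2 and those without DMSO replicate 1 or 2 or palbociclib replicate 1 or 3.

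**Figure D2:**
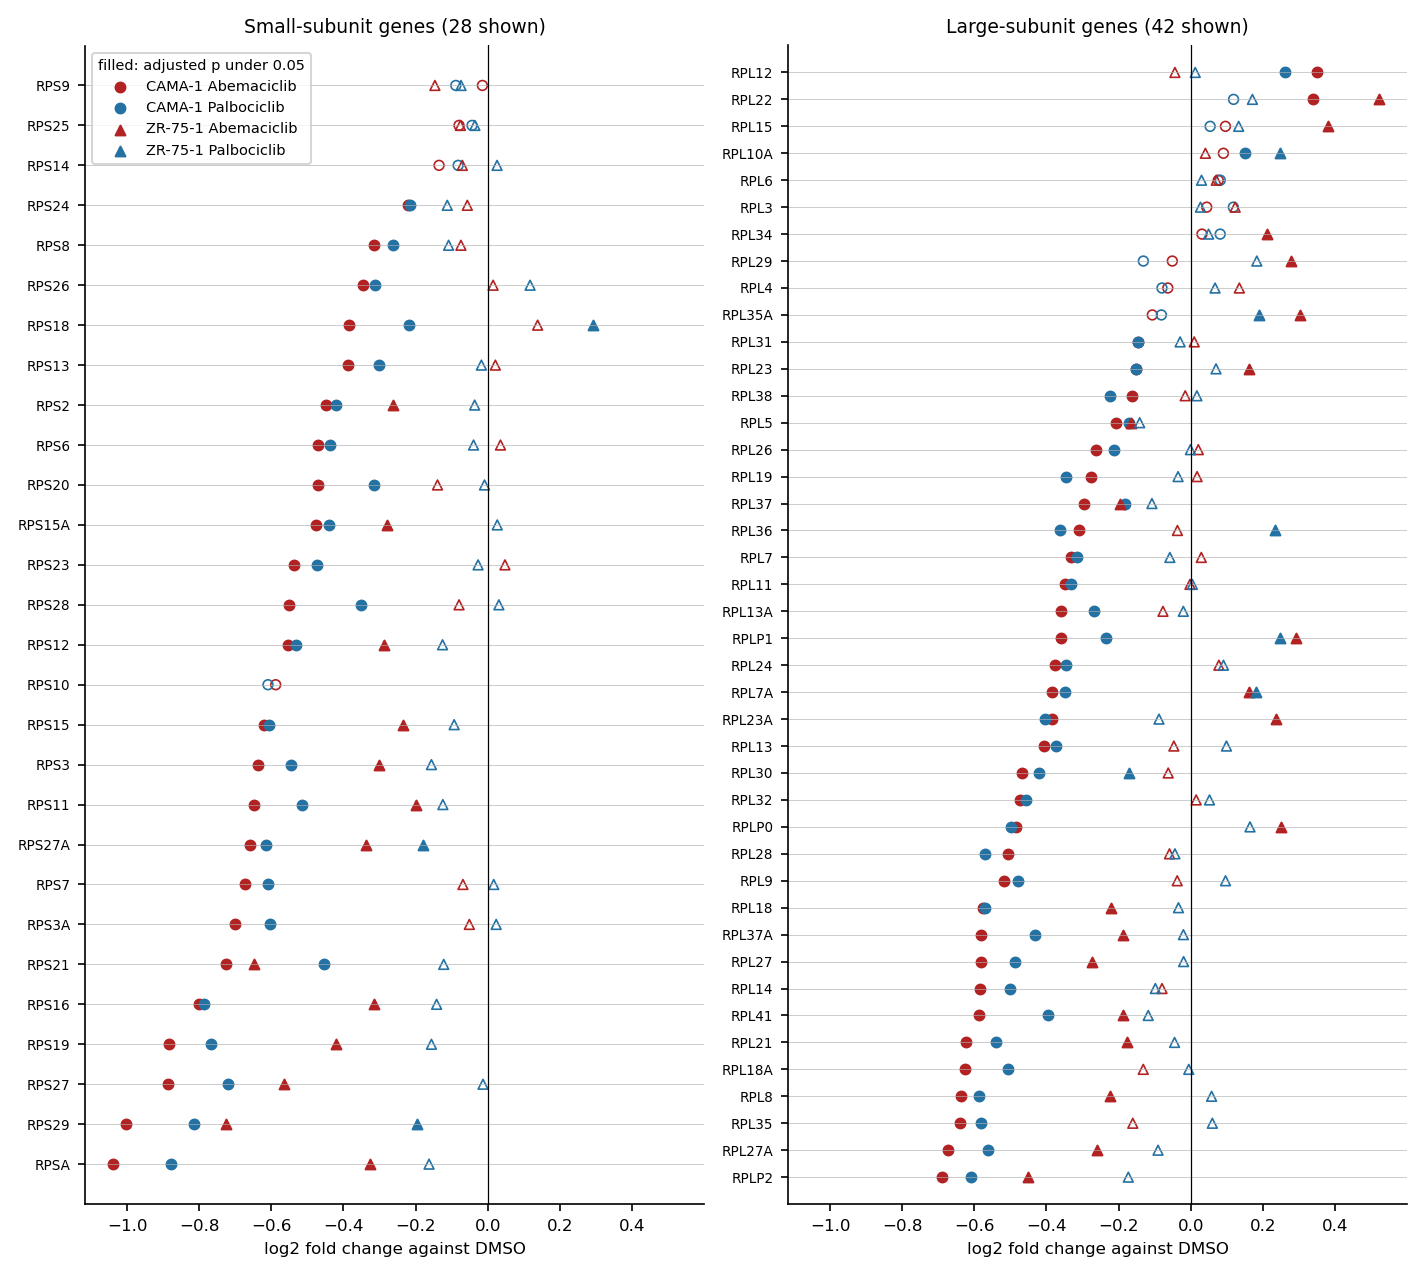
Log2 fold change against DMSO (horizontal axis) of each small-subunit (left) and large-subunit (right) member tested in CAMA-1 and reported here, ordered by the abemaciclib value in CAMA-1. Circles are CAMA-1 and triangles ZR-75-1, red is abemaciclib and blue palbociclib, and filled marks have an adjusted p under 0.05. The CAMA-1 values lie to the left of 0 for most members with each drug, from RPSA at -1.04 to RPL12 at 0.35 with abemaciclib, while the ZR-75-1 values lie closer to 0.

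In ZR-75-1, abemaciclib moved members in both directions. Of 70 members tested, 24 fell and 10 rose, against 18.3% called lower and 17.9% called higher among all genes tested, and the median log2 fold change of the members was -0.07 (all genes, -0.00). All 24 that fell had also fallen in CAMA-1, where 57 members were lower. Small-subunit members accounted for 14 of the falls and none of the rises. All 10 members that rose were of the large subunit (RPL7A, RPL15, RPL22, RPL23, RPL23A, RPL29, RPL34, RPL35A, RPLP0 and RPLP1), and 10 large-subunit members fell.

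RPS29 fell most, with 4690, 4314 and 4601 CPM in the ZR-75-1 controls and 2639, 2970 and 2613 with abemaciclib (-0.73 ± 0.07, adjusted p = 1.0e-13). RPS21, a small protein of the subunit's body, had 2355, 2106 and 2334 CPM with DMSO and 1427, 1524 and 1382 with abemaciclib (-0.65 ± 0.07), and RPS27, which like RPS29 binds zinc, had 1013, 883 and 982 and then 594, 649 and 703 (-0.57 ± 0.07). In all of these the drug libraries lay below every control. In the mRNA channel list RPS2, RPS3 and RPSA fell, by 0.26 to 0.33 on the log2 scale, and RPS9, RPS14, RPS26 and RPS28 were not called. RPS27A changed by -0.34 ± 0.07 and RPS6 by 0.04 ± 0.06, the latter with an adjusted p of 0.71.

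The P stalk split in ZR-75-1. RPLP0 rose from 3255, 2880 and 3172 CPM with DMSO to 3506, 3920 and 3636 with abemaciclib (0.25 ± 0.06, adjusted p = 1.6e-03), and RPLP1 from 2023, 1780 and 2026 to 2227, 2528 and 2378 (0.29 ± 0.07, adjusted p = 3.0e-04). RPLP2, the partner of RPLP1 in the stalk, fell from 673, 590 and 648 CPM to 456, 486 and 455 (-0.45 ± 0.07, adjusted p = 3.7e-07). Each of these stalk proteins had drug libraries wholly above or wholly below the controls.

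RPL22 showed the largest rise, from 392, 369 and 397 CPM to 583, 526 and 553 (0.52 ± 0.07, adjusted p = 1.0e-08), followed by RPL15, a core protein of the large subunit, from 908, 827 and 855 to 1103, 1117 and 1153 (0.38 ± 0.06), and RPL35A at 0.30 ± 0.07. Of the other exit tunnel proteins RPL23A was called higher at 0.24 ± 0.09, and its controls were widely spread, with 1706, 1248 and 1847 CPM. Without DMSO replicate 2 its estimate was 0.08 and was not called. RPL19, RPL26, RPL31 and RPL35, and RPL24 away from the tunnel, ranged from -0.16 to 0.08 and were not called. RPL5 was called lower (-0.17 ± 0.06, adjusted p = 0.039), a call lost in 8 of 13 alternative fits, including those that left out any library but DMSO replicate 2, and RPL11 was at -0.00 ± 0.06. Near the peptidyl transferase centre RPL8 fell (-0.22 ± 0.07), and RPL3 and RPL4 stood at 0.12 ± 0.07 and 0.13 ± 0.06 without a call.

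**Figure D3:**
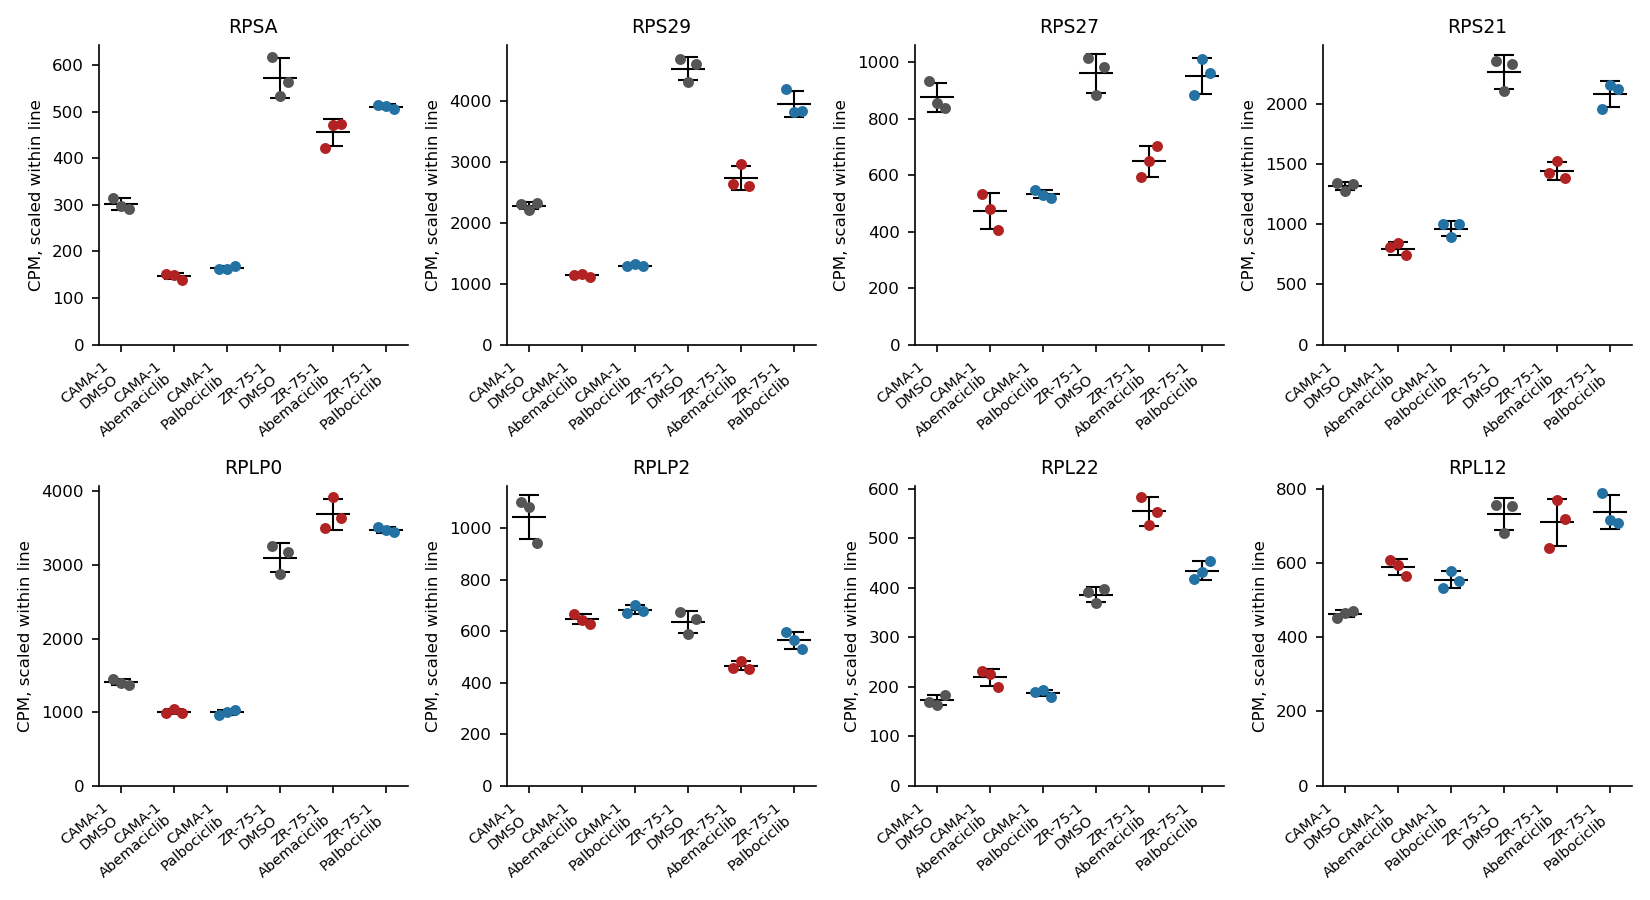
CPM by library (vertical axis, from 0, scaled within each line) of 8 members in the 6 groups, with the mean and SD as bars (n = 3). RPSA, RPS29, RPS27, RPS21 and RPLP2 lie below the controls in all CAMA-1 drug libraries and in the ZR-75-1 abemaciclib libraries. RPLP0 falls in CAMA-1 and is higher with abemaciclib in ZR-75-1, RPL22 is higher with abemaciclib in both lines and RPL12 is higher in CAMA-1.

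Palbociclib changed few members in ZR-75-1. Of 70, 6 rose (RPL7A, RPL10A, RPL35A, RPL36, RPLP1 and RPS18) and 3 fell (RPL30, RPS27A and RPS29), against 14.5% and 13.4% of all genes tested, and the median was -0.02 (all genes, -0.01). The largest rise was that of RPS18, a protein of the subunit's head, from 756, 668 and 714 CPM to 874, 879 and 865 (0.29 ± 0.07, adjusted p = 4.9e-04), followed by RPL10A (0.25 ± 0.07) and RPLP1 (0.25 ± 0.07). RPS29 was at 4197, 3827 and 3839 CPM, below every control (-0.20 ± 0.07, adjusted p = 0.018), RPS27A at -0.18 ± 0.07 and RPL30 at -0.17 ± 0.07. The falls depended on single libraries. Without DMSO replicate 1 no member was called lower and without DMSO replicate 2 there were 8, without palbociclib replicate 1 there were 6, and without palbociclib replicate 2 or 3 there was 1. The estimates of all 70 members ran from -0.20 to 0.29. Of the members in the role lists only RPLP1 and RPS27A were called, and RPLP0 missed the threshold at 0.16 ± 0.06.

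RPS27A and RPS29 were the members called lower in all 4 comparisons with DMSO, and none was called higher in all 4. RPL3, RPL4, RPL6, RPS9, RPS14 and RPS25 were called in none of them. The matching shares of all genes tested are not given here, so these counts are not read as particular to the members. With palbociclib in ZR-75-1 the call was lost in 3 of 13 alternative fits for RPS29 and in 2 of 13 for RPS27A. Each of those fits left out a single library. The pair of comparisons in a line shares its DMSO libraries.

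The direct comparison of the drugs separated them more in ZR-75-1 than in CAMA-1 by count, although that difference in counts was not tested. In CAMA-1 only RPS21 was called, lower with abemaciclib (808, 845 and 744 CPM) than with palbociclib (1000, 891 and 999; -0.27 ± 0.06, adjusted p = 0.0074), against 1.53% of all genes called lower and 0.796% called higher. That call was lost without abemaciclib replicate 3, palbociclib replicate 1 or palbociclib replicate 3. Of the other members, RPS10 aside, 69 had estimates from -0.20 to 0.22, and 2 SEs around them reached from -0.35 to 0.38. In ZR-75-1 abemaciclib gave lower levels than palbociclib for 14 of 70 members and higher levels for 3, against 7.94% and 5.23% of all genes. RPS27 (-0.55 ± 0.07, adjusted p = 1.8e-08), RPS29 (-0.53 ± 0.07) and RPS21 (-0.53 ± 0.07) differed most, and 7 of the 14 were small-subunit members. Without abemaciclib replicate 3 the 14 became 9. RPS27 had 594, 649 and 703 CPM with abemaciclib and 882, 1011 and 959 with palbociclib, where the latter overlapped the controls. RPL22 (0.35 ± 0.07), RPL23A (0.32 ± 0.09) and RPL15 (0.25 ± 0.06) were the members higher with abemaciclib. The 53 members not called there ran from -0.17 to 0.16, with 2 SEs reaching from -0.31 to 0.29.

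The difference between the lines was tested in one fit of all 18 libraries, by subtracting the CAMA-1 log2 fold change from the ZR-75-1 one. For abemaciclib 48 of 71 members had a higher value in ZR-75-1 and 1 a lower value, against 8.19% and 10.0% of all genes tested, and the median difference was 0.33 (all genes, -0.03). For palbociclib 45 were higher and 1 lower, against 10.0% and 10.3%, with a median of 0.36 (all genes, -0.02). RPLP0 had the smallest p for abemaciclib, with a difference of 0.71 ± 0.08 (adjusted p = 9.6e-10), followed by RPLP1 (0.63 ± 0.09) and RPSA (0.69 ± 0.10). For palbociclib RPLP0 (0.64 ± 0.08, adjusted p = 2.0e-08) and RPL8 (0.62 ± 0.09) were among the members with the smallest p. RPL12 was the member with the lower value in ZR-75-1 for both drugs (-0.42 ± 0.10, adjusted p = 9.1e-04, and -0.28 ± 0.10, adjusted p = 0.032). The palbociclib value kept its sign but lost its call when any of 10 of the 12 libraries was left out. In ZR-75-1 RPL12 stood at 758, 683 and 755 CPM in the controls, 642, 770 and 719 under abemaciclib and 790, 716 and 708 under palbociclib, so that these groups overlapped.

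The members that fell most in one line tended to be those that fell most in the other. Across the 70 members tested in both lines, the log2 fold changes of CAMA-1 and ZR-75-1, which share no library, correlated at r = 0.72 (Spearman's rho = 0.73) for abemaciclib and at r = 0.43 (rho = 0.43) for palbociclib. The points are genes and not replicates, and all members of a line share its libraries. Log2 fold changes were only weakly related to a member's mean count, with an abemaciclib r of -0.08 for CAMA-1 and -0.16 for the other line. Members with the pyrimidine run at the annotated start had a median of -0.47 with abemaciclib in CAMA-1 (43 genes), and members with an entry but without the run had -0.41 (14 genes). In ZR-75-1 the corresponding medians were -0.06 (42 genes) and 0.01 (14 genes).

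**Figure D4:**
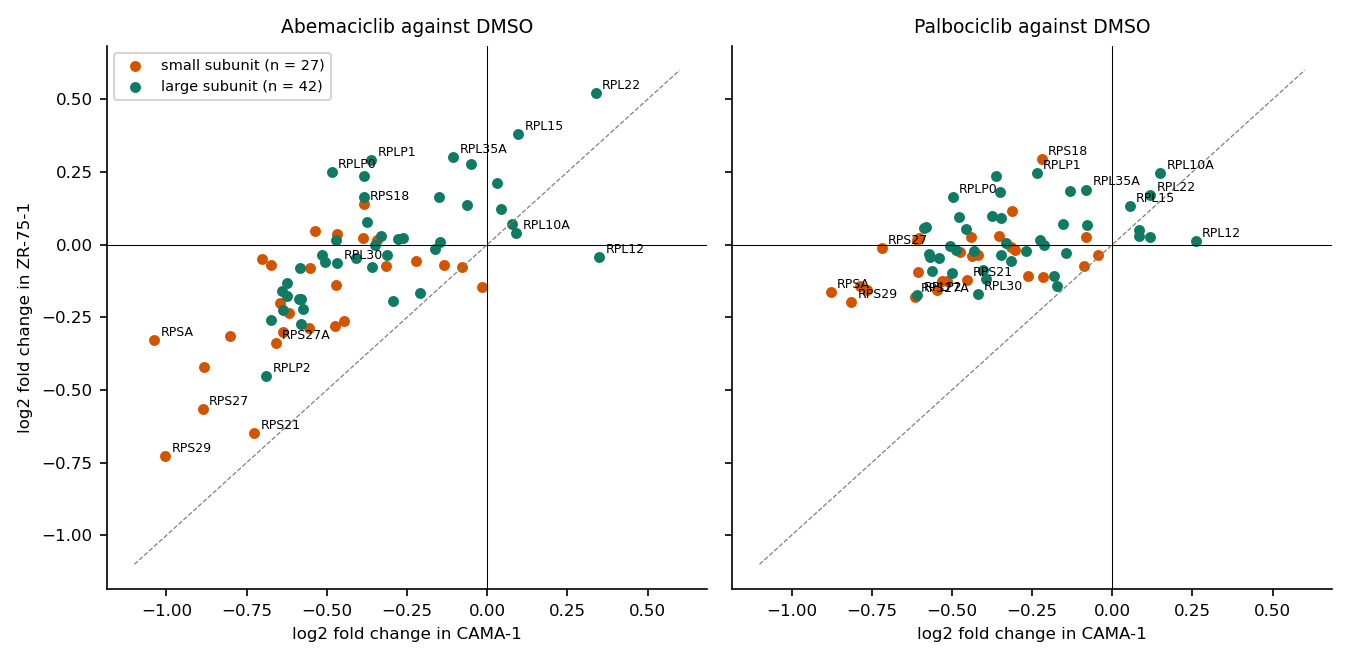
Log2 fold change against DMSO in CAMA-1 (horizontal axis) and in ZR-75-1 (vertical axis) of the members tested in both lines and reported here, for abemaciclib (left) and palbociclib (right). Orange points are small-subunit and green points large-subunit members, and the dashed line marks equal change. Most points lie above the line, and with abemaciclib the members with the largest falls in CAMA-1 also lie lowest in ZR-75-1 (r = 0.72).

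To ask which members departed from the group, the counts were also scaled by the summed member counts of each library, so that a log2 fold change is relative to the members as a whole. This scaling places members on both sides of their total by construction. A fall of the members raises all other genes on this scale, so the shares of all genes are no baseline for the member counts. In CAMA-1, 20 members were higher and 22 lower than the total with abemaciclib, and 22 and 19 with palbociclib, and on this scale 50.0% and 44.9% of all genes were called higher and 7.27% and 6.66% lower. Small-subunit members were 13 of the 22 lower and 4 of the 20 higher with abemaciclib. RPL12 (0.78 ± 0.07), RPL22 (0.77 ± 0.08) and RPL10A (0.52 ± 0.06) stood out above the total, and RPS29 (-0.57 ± 0.06) and RPS19 (-0.45 ± 0.06), the protein most often mutated in Diamond-Blackfan anaemia, below it. With palbociclib RPL12 (0.64 ± 0.07), RPL10A (0.53 ± 0.06) and RPL34 (0.46 ± 0.06) were above, and RPS29 (-0.43 ± 0.06), RPS16 (-0.40 ± 0.06) and RPS19 (-0.38 ± 0.06) below.

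In ZR-75-1, 14 members were above and 15 below the total with abemaciclib, against 22.1% and 14.2% of all genes, and 12 of the 15 but only 1 of the 14 were of the small subunit. RPL22 (0.62 ± 0.07), RPL15 (0.48 ± 0.06) and RPLP1 (0.39 ± 0.06) were above, and RPS29 (-0.63 ± 0.06), RPS21 (-0.55 ± 0.06) and RPS27 (-0.47 ± 0.07) below. With palbociclib 8 were above and RPS29 alone below (-0.17 ± 0.06, adjusted p = 0.014), against 14.7% and 11.7% of all genes. That RPS29 call was lost without palbociclib replicate 2 or 3, and the count below the total was 0 without palbociclib replicate 2, 4 without palbociclib replicate 1 and 2 without DMSO replicate 3. With all libraries kept, RPS29 was the member below the total, and RPL22 and RPL35A were the members above it, in all 4 comparisons with DMSO.

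The lines differed in their members before treatment. With DMSO, 43 of 71 members were higher in ZR-75-1 and 15 lower, against 31.5% and 29.8% of all genes tested, with a median log2 difference of 0.33 (all genes, 0.01). That median was 0.16 when the libraries were scaled by their totals only, and 0.19 without CAMA-1 DMSO replicate 3. RPS28, a small protein beside the mRNA exit, had 287, 316 and 287 CPM in CAMA-1, against 3255, 2824 and 3019 in ZR-75-1 on a scale common to both lines, a log2 difference of 3.35 ± 0.07 (adjusted p = 8.0e-47) and a 10.2-fold ratio of the means. Of the member counts it made up 0.335% in CAMA-1, against 2.72% for ZR-75-1. Its pseudogene rows had a mean of 28.3 and 30 counts in the control libraries of the lines, and on the opposite strand its position overlaps NDUFA7, KANK3 and an unnamed gene, from which its reads cannot be separated if the counting ignored strand. RPS12, a protein of the subunit's beak, had 1246, 1126 and 1176 CPM in CAMA-1, against 4509, 4073 and 4260 in ZR-75-1 (1.86 ± 0.06), and RPLP0 1392, 1341 and 1326 against 3321, 2935 and 3235 (1.23 ± 0.06).

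In the other direction, RPS3 had 4935, 5089 and 4654 CPM in CAMA-1, against 1489, 1433 and 1468 in ZR-75-1 (-1.74 ± 0.06), RPL8 2497, 2575 and 2755 against 1047, 991 and 1053 (-1.34 ± 0.06) and RPS18 1724, 1637 and 1668 against 771, 680 and 728 (-1.21 ± 0.06). None of these overlapped between the lines. RPS10 is counted among the members called lower in ZR-75-1, on the few counts given above. It passed the filter through its CAMA-1 counts, which favoured that direction, so the call is not read as a difference. In the mRNA channel list 6 of 8 members were higher in ZR-75-1 and RPS3 and RPS14 lower, and in the P stalk RPLP0 and RPLP1 were higher and RPLP2 lower. RPS6 and RPS27A were not called, at 0.05 ± 0.06 and 0.15 ± 0.07. Small-subunit members were called higher at 21 of 29 and large-subunit members at 22 of 42.

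**Figure D5:**
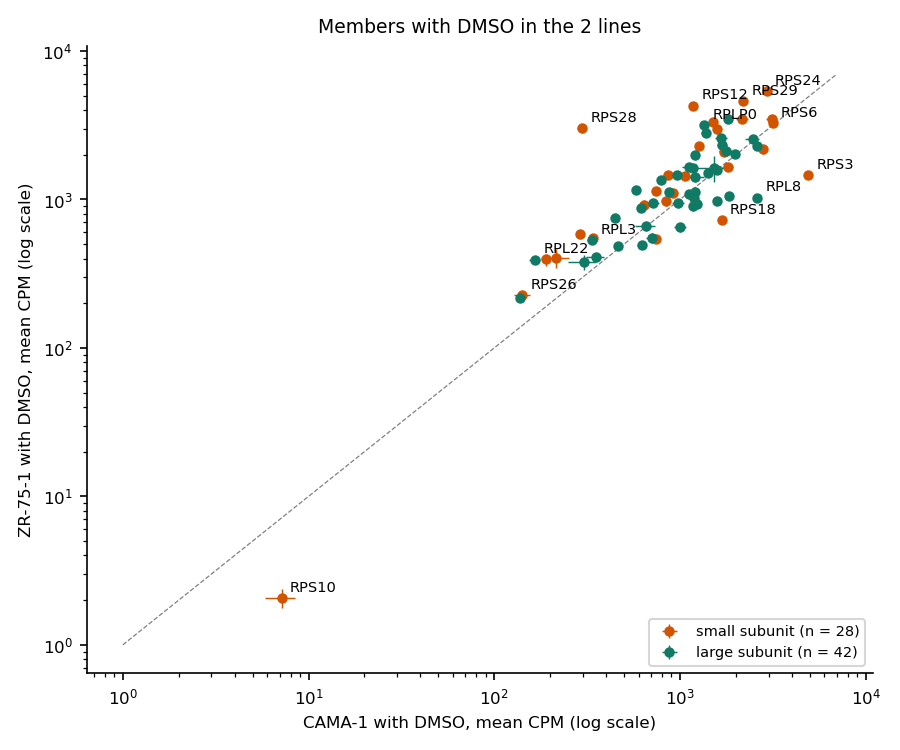
Mean CPM with DMSO in CAMA-1 (horizontal axis) and ZR-75-1 (vertical axis), both on log scales and scaled over both lines, of the members tested and reported here, with SD bars (n = 3). Orange points are small-subunit and green points large-subunit members, and the dashed line marks equal levels. RPS28 lies 10.2-fold above the line of equality, RPS3 and RPL8 lie below it, and RPS10 sits apart at a few CPM.

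Ribosomal proteins outside the naming rule were set beside the members. FAU, made as a fusion with a ubiquitin-like protein, and RACK1, a scaffold on the small subunit, both fell in CAMA-1 with either drug (FAU -0.64 ± 0.06 with abemaciclib). In ZR-75-1 with abemaciclib FAU and RACK1 stood at 0.07 ± 0.06 and -0.03 ± 0.06. Of the 4 X-linked genes, RPL39 and RPL10 fell with abemaciclib in CAMA-1, by 0.36 and 0.19 on the log2 scale, and RPS4X and RPL36A were not called. In ZR-75-1 RPS4X and RPL36A rose with abemaciclib, by 0.34 and 0.76. Among the paralogs that can replace a member, RPS27L, a p53-responsive relative of RPS27, rose slightly with abemaciclib in CAMA-1 (0.26) but fell in ZR-75-1 with both drugs (-1.41 and -0.71). RPL22L1, the relative of RPL22, was not called in any comparison with DMSO.

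The mitochondrial ribosomal protein, ribosome biogenesis and other TOP mRNA lists had smaller median changes than the members in CAMA-1 with abemaciclib. Of all genes tested in CAMA-1, 20.1% fell and 20.3% rose with abemaciclib. The matching shares for ZR-75-1 were 18.3% and 17.9%. Of 72 mitochondrial ribosomal protein genes tested, 32 fell and 2 rose with abemaciclib (median -0.26), and in ZR-75-1 16 fell and 6 rose (median -0.11). Of 65 ribosome biogenesis genes, 21 fell and 3 rose with abemaciclib in CAMA-1 (median -0.15), and of 66 in ZR-75-1, 11 fell and 10 rose (median 0.07). The 13 tested mRNAs that carry a TOP motif without encoding a ribosomal protein were mixed. With abemaciclib in CAMA-1 4 fell, among them NPM1 (-0.41) and HNRNPA1 (-0.61), and 3 rose, among them EEF1A1 (0.25) and TPT1 (0.24), with a median of -0.09. In ZR-75-1 3 fell and 5 rose (median 0.14), and NPM1, HNRNPA1 and EEF1D were lower and TPT1 higher in all 4 comparisons with DMSO. Of 8 tested host genes of small nucleolar RNAs with a TOP motif, SNHG1 (-1.42) and SNHG6 (-1.01) fell most in CAMA-1 with abemaciclib. They were picked as the largest falls, and the values of the rest of that list are not given here.

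Genes of the mTOR pathway, which governs TOP mRNAs, were also tested. LARP1 stood between -0.08 and -0.02 in the 4 comparisons with DMSO and was not called. EIF4EBP1, a translational repressor held inactive by mTOR, fell in CAMA-1 under either drug (-0.83 and -0.60), and ZR-75-1 showed a fall with abemaciclib (-0.74). DEPTOR, an inhibitor of mTOR, rose under either drug in CAMA-1 (1.03 and 0.91), and ZR-75-1 showed a rise with palbociclib (0.94). TSC1, another negative regulator, rose under either drug in CAMA-1 (0.99 and 0.86), and the ZR-75-1 values of 0.08 and 0.17 were not called. SESN2 rose with abemaciclib in CAMA-1 (0.56) and fell with both drugs in ZR-75-1 (-1.15 and -0.63). With abemaciclib 4 of 17 genes of this list rose and 3 fell in CAMA-1 (median -0.06), where 20.3% of all genes were called higher and 20.1% lower. In ZR-75-1 none rose and 4 fell (median -0.11), against 17.9% and 18.3%.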

How the data were processed

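RNA from 18 libraries was sequenced with a Lexogen QuantSeq 3′ kit, and the deposited values are raw counts per gene that the authors made with STAR 2.7.5b and featureCounts 2.0.1 on hg38. Whether counting used strand, multiply mapped reads or molecular identifiers is not given in the sources used here. The 73 members and the gene lists were chosen with earlier results of these data known. Groups were taken from the labels. Counts were filtered (filterByExpr), scaled by TMM and tested with edgeR 4.0.16 (R 4.3.3) by the quasi-likelihood F test, with 9 libraries of a line in each fit (11053 and 11017 genes) and all 18 in the fit between lines (11987 genes). P-values were adjusted by Benjamini-Hochberg over all genes tested and called under 0.05. A second scaling used the summed member counts as library size. Scripts were tested on simulated data. Library totals were 2308442 to 4146549 counts, and SEs include replicate spread and counting error. Exact permutation p-values of shares summed over the members, which cannot fall below 0.1 with 3 libraries against 3, are not quoted. Genes named singly were the members of the role lists, the members with the largest changes or, between lines and against the member total, the smallest p, those with the most and fewest counts, and, chosen after their values were seen, members in every or no set of calls. Alternatives were other scalings and filters, mitochondrially encoded genes removed, DESeq2 1.42.0 (the tool of the study), a replicate block and leaving out each library. Promoter starts came from RefSeq on GRCh38.p14. A few genes are not reported here by name, though counts over the members and lists include them.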

Additional observations from a re-analysis of the deposited data

Results flagged for a closer look

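The responses of the lines differed in a test of the difference itself, the interaction of line and drug in edgeR's quasi-likelihood fit of all 18 libraries. For abemaciclib 48 of 71 members had a higher log2 fold change in ZR-75-1 than in CAMA-1 and 1 a lower one, against 8.19% and 10.0% of all genes tested. For palbociclib the counts were 45 and 1, against 10.0% and 10.3%. The members with the smallest p for abemaciclib included RPLP0 (0.71 ± 0.08 SE), RPLP1 (0.63 ± 0.09) and RPSA (0.69 ± 0.10), and for palbociclib RPLP0 (0.64 ± 0.08) and RPL8 (0.62 ± 0.09). RPL12 went the other way with both drugs (-0.42 ± 0.10 and -0.28 ± 0.10). RPLP0 and RPLP1 fell in CAMA-1 and rose in ZR-75-1 with abemaciclib, whereas RPSA fell in both lines and by less in ZR-75-1. The share of mitochondrially encoded counts rose in CAMA-1 from 15.7% ± 0.87 with DMSO to 24.8% ± 1.37 with abemaciclib and was 20.2% ± 2.68 and 19.5% ± 1.01 for ZR-75-1, and its part in these differences was not tested. Groups of 3 libraries are too small for a test of single libraries that stand apart.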

How the results depend on the processing

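Of 530 recomputed values of the 42 summary results, 475 stayed within the limits set for a change. The member median for palbociclib in ZR-75-1 was -0.015 and changed sign with the libraries used. It was 0.011 without DMSO replicate 1 and 8.6e-05 without palbociclib replicate 1. Of 3975 recomputed values of single members, 104 lost a call, 55 gained one and none turned direction. In CAMA-1 the share difference from DMSO of -3.10 percentage points with abemaciclib became -2.74 over the counts outside mitochondrially encoded genes, -3.52 with pseudogene rows added and -2.77 without the 3 members with the most counts, and that of -2.76 with palbociclib became -2.43, -3.18 and -2.45. The share difference between the lines with DMSO of 1.16 became 2.09 outside mitochondrially encoded genes. Scaling by library totals only moved the median of all genes by -0.13 (abemaciclib) and -0.11 (palbociclib) in CAMA-1, by 0.15 and 0.13 in the differences between lines and by -0.16 with DMSO. The member medians became -0.59 and -0.50 in CAMA-1, 0.48 and 0.49 for the differences between lines and 0.16 with DMSO, and the share of calls in the higher direction went from 50.3% to 35.9% and from 49.5% to 36.3% in CAMA-1 and from 44.9% to 65.9% and from 49.3% to 67.6% for the differences. With the same scaling no member was called higher with palbociclib in CAMA-1 (2 before), 2 were lower with abemaciclib than palbociclib in CAMA-1 (1 before) and none was lower in the palbociclib difference between lines (1 before), which was also 0 with mitochondrially encoded genes removed. The drug difference in CAMA-1 gave 2 lower members with upper-quartile scaling, with mitochondrially encoded genes removed and with DESeq2. DESeq2 called 1 member higher with palbociclib in CAMA-1, 5 lower with palbociclib in ZR-75-1 (3 before; 6 with upper-quartile scaling) and 3 below the member total there (1 before; 4 with the median of ratios over members). The cause of these moves was not tested. Leaving out each library in turn gave 1 to 2 members higher with palbociclib in CAMA-1, 0 to 1 lower in the CAMA-1 drug difference, 0 to 8 lower with palbociclib in ZR-75-1, 9 to 15 lower in the ZR-75-1 drug difference, 0 to 4 below the member total with palbociclib in ZR-75-1 and 0 to 1 lower in the palbociclib difference between lines, and medians of 0.30 to 0.41 for the abemaciclib difference between lines (highest without ZR-75-1 abemaciclib replicate 1) and 0.19 to 0.35 with DMSO. Where this left a group with 2 libraries, the spread was pooled over the fit.

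The replicate numbers did not pair the samples, since the residuals of same-numbered libraries correlated at -0.08 to 0.01 in CAMA-1 and -0.03 to 0.01 in ZR-75-1 and none of 9 pairs in either line passed 0.1. With the replicate number as a block 1 member was called higher with palbociclib in CAMA-1 (2 without the block) and 2 lay below the member total with palbociclib in ZR-75-1 (1 without), and no other count moved by over 1.5 times.

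RPS10 and RPL17 are too sparse to read a change from, with means of 12.3 and 1.11 counts. Their pseudogene rows had means of 37.6 and 1322 counts, and the cause of the low counts was not tested. Reads shared by members with their pseudogenes, readthrough genes and opposite-strand neighbours were not separated. All values are relative to the library, and absolute amounts of mRNA were not measured.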
